A study of Mus musculus with 6 samples.

Results

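The 12 sequences described here are variants of a Gli binding site that carry a CpG dinucleotide at one fixed place. They were taken from the R6 library, in which 3 neighbouring bases of the site took every combination, so that each block of the table lists 64 sequences. The 12 were chosen by sequence alone: the first varied base is G, the last is not C. Numbering the 16 bases of the site from 1 at its start, the varied bases are positions 11, 12 and 13, between a C at position 10 and a G at position 14. A G at position 11 therefore makes a CpG with the C before it. In 11 of the 12 this is the only CpG of the window, and 1, GCG, has a further CpG with its C at position 12. All are designed double-stranded oligonucleotides bound in a test tube, so they have no place in a genome.

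Mouse Gli made as a recombinant protein, which the titles call Gli1, was given barcoded R6 libraries in 4 states. These were untreated DNA, DNA methylated on its top strand (hemimethylated), duplex methylated DNA, and DNA exposed to M.SssI. Protein-bound and free DNA were separated on a gel and each fraction was amplified and sequenced as 1 library. The R6 reaction is thus 2 of the 6 samples of the study, which held 3 reactions. All 4 states shared that reaction, its protein and its gel, and nothing was repeated, so every error below is a counting error and no p-value is given. Reads were amplified without molecular identifiers and can be copies of one molecule, so these errors cover counting only.

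Gli proteins are zinc finger transcription factors that carry the output of the Hedgehog pathway to DNA, and they recognise a site built around the core gaccaccca. In animals the cytosine of a CpG is the usual place of DNA methylation. M.SssI is a bacterial methyltransferase that methylates the cytosine of CpG on both strands, whatever the bases around it. The methyl groups stand in the major groove, the side of DNA that zinc fingers read. A hemimethylated duplex carries them on a single strand. In this kind of experiment the bound over unbound read ratio of a sequence ranks its affinity against the other sequences of the reaction.

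The 12 sequences are shown in full because the place of the CpG is what they share. Each is written as the study's 16-base table lists it, with CpG bases in capitals and the name giving positions 11 to 13. The R6 blocks list the 3 varied bases only, so the flanking bases are those of the matching entry in that table.
Variant GTT: gaccacccaCGttgaa
Variant GTA: gaccacccaCGtagaa
Variant GTG: gaccacccaCGtggaa
Variant GAA: gaccacccaCGaagaa
Variant GAT: gaccacccaCGatgaa
Variant GAG: gaccacccaCGaggaa
Variant GGA: gaccacccaCGgagaa
Variant GGT: gaccacccaCGgtgaa
Variant GGG: gaccacccaCGgggaa
Variant GCA: gaccacccaCGcagaa
Variant GCT: gaccacccaCGctgaa
Variant GCG: gaccacccaCGCGgaa

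The C at position 10 is not written in the R6 table. It rests on another reaction of the study, titled R4-R6, which held both an R6 block and 7-base sequences that spell out position 10. Among the 12, the 7-base sequences with C at position 10 differed from the R6 values by a median log ratio of 0.09 with an SD of 0.06, where counting gives an SE of 0.06. With another base there (A, G or T in turn), the same 12 lay lower by medians of -0.59, -1.32 and -1.18, with SDs of 0.22, 0.36 and 0.37. Log ratios here are natural logs of the ratio of bound to unbound counts, both raised by 0.5.

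Depth differed widely between states. Bound reads numbered 114228 in untreated DNA, 174691 with M.SssI, 52135 in hemimethylated and 8257 in duplex methylated DNA. Unbound reads numbered 40596, 90103, 43448 and 9273 in the same order. For the 12 sequences the median counting SE of a log ratio was 0.05 untreated, 0.03 with M.SssI, 0.05 hemimethylated and 0.17 in the duplex block. In the duplex block their counts went down to 24 bound and 43 unbound reads.

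Untreated, the 12 sequences included the strongest binder of the library, GTT, and also weak ones. Of the 12, 7 stood among the 16 highest ratios, a place that 25% of all 64 sequences hold by definition. Their median ratio was 4.98, against 2.72 for the 30 sequences with no CpG anywhere in the window and 3.13 for all 64. Their own ratios spanned 8.01-fold, so the CpG came with both strong and weak sites.

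The 3 sequences with T in the middle were high throughout. GTT had 4056 bound and 330 unbound reads, a ratio of 12.3 with an exact binomial (Clopper-Pearson) 95% interval of 10.98 to 13.8. GTA had 3098 and 309 reads, a ratio of 10.01 (8.92 to 11.3). GTG had 4507 and 618 reads, a ratio of 7.29 (6.70 to 7.95). GTG lay below both others by more than 2 counting SE.

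With A in the middle, the last base separated the sequences more. GAA had 1744 bound and 168 unbound reads, a ratio of 10.4 (8.86 to 12.2), and GAT had 2682 and 278 reads, a ratio of 9.63 (8.52 to 10.96). GAG had 2426 and 769 reads and a ratio of 3.15 (2.91 to 3.43), 3.28-fold below GAA. The top of the group was GTT, then GAA and GTA, then GAT with the fourth highest ratio, and no neighbours in that order differed by more than 2 counting SE.

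For the same last base, sequences with G or C in the middle had lower ratios than those with A or T. GGA had 2764 bound and 525 unbound reads with a ratio of 5.26, and GGT 3442 and 731 reads with 4.71, a pair within 2 counting SE of each other. GGG was the lowest of the 12, with 3456 and 2256 reads and a ratio of 1.53 (1.45 to 1.62). GCA had 2047 and 513 reads with 3.99, GCT 2365 and 628 with 3.76, and GCG 2945 and 1150 with 2.56. GCA and GCT did not differ beyond counting error. A G at position 13 was thus the lowest of its trio for every middle base, by 1.37-fold (GTG below GTA) to 3.43-fold (GGG below GGA) against A.

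To ask what the G of the CpG is worth by itself, each sequence was compared with the pair that differs from it only by A or T at position 11, which removes the CpG. For GTT these are shown to make the comparison plain.
Variant ATT: gaccacccacattgaa
Variant TTT: gaccacccactttgaa
Untreated ATT had 2105 bound and 402 unbound reads, a ratio of 5.23, and TTT had 2135 and 753 reads, a ratio of 2.83. GTT exceeded their geometric mean 3.19-fold, a log difference of 1.16 ± 0.07 (counting SE). Over the 12 sequences this advantage of G had a median of 1.02, or 2.77-fold, and ran from 0.25 in GGG to 1.24 in GTG. It depended on the middle base: it averaged 1.13 ± 0.12 (SD over 3 sequences) with T, 1.04 ± 0.22 with A, 0.99 ± 0.10 with C and 0.33 ± 0.11 with G. With G in the middle, G at position 11 thus had the smallest advantage over A or T, and all 3 such sequences lay below all 9 others in this measure.

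The same 12 sequences in the R4-R6 reaction show how far the untreated values repeat. The titles and block headings of that reaction name Gli1 and R6, while its other labels describe a library named for CTCF, so its identity rests on the titles and headings. There GTT had 17716 bound and 2345 unbound reads, a ratio of 7.55, and GGG 10494 and 15893 reads, a ratio of 0.660. These were again the highest and the lowest of the 12. Log ratios were lower there by a median of 0.51, with differences from 0.34 (GAT) to 0.84 (GGG) and an SD of 0.13. As a description, r over the 12 sequences was 0.990, each reaction being 1 pair of libraries. The advantage of G over A or T was larger in that reaction, with a median of 1.26, and again smallest in GGG, at 0.40, with GGT at 0.45 and GGA at 0.70.

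After M.SssI treatment all 12 sequences had lower ratios, and the advantage of G at position 11 was mostly gone. The comparison asks how methylating the CpG at position 10 changes binding. GTT had 7724 bound and 1164 unbound reads, a ratio of 6.63 (6.24 to 7.06) in place of 12.3. ATT, without the CpG, had a ratio of 5.95 in place of 5.23. The treated and untreated intervals of GTT do not overlap, and GTT remained the highest sequence of the whole block.

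The other sequences moved in the same direction by different amounts. GTA went from 10.01 to 6.04 (5416 and 896 reads) and GTG from 7.29 to 4.01 (5714 and 1425 reads). GAA went from 10.4 to 4.55 (2987 and 656 reads), GAT from 9.63 to 5.03 (4532 and 901) and GAG from 3.15 to 1.46 (2574 and 1762). The ratios of the A trio fell by somewhat larger factors than those of the T trio, but several pairs between the trios, GAT and GTT among them, lay within 2 counting SE of each other. GCA went from 3.99 to 1.77 (2285 and 1291 reads) and GCT from 3.76 to 1.71 (2572 and 1503). GCG, with its further CpG, went from 2.56 to 1.86 (3329 and 1788 reads). GGA went from 5.26 to 3.57 (4389 and 1228 reads), GGT from 4.71 to 3.80 (4562 and 1201) and GGG from 1.53 to 1.06 (4281 and 4027). GCG and the trio with G in the middle lost least.

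Sequences without CpG provide the background for these changes. Their log ratios rose by a median of 0.15 on treatment, with an SD of 0.06 that equals their counting SE of 0.06. Taken relative to that median, the 12 changed by a median of -0.75, a 2.13-fold fall, from -0.97 ± 0.09 (counting SE) in GAA to -0.36 ± 0.05 in GGT. A fall of more than 1.5-fold was found in 11 of the 12, with GGT at 1.44-fold as the exception. Over all 64 sequences 42.2% passed this limit, all of them with a CpG at position 10 or 13, and 0 of the 30 without CpG did. No sequence rose past it.
Without centring, the median was -0.61. Scaled by the total reads of each block it was -0.23 and 3 of the 12 passed, but those totals include the CpG sequences that fell.

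The comparison with A or T at position 11 needs no scaling, since all 3 sequences come from the same block. In the M.SssI block the median advantage of G was 0.14, or 1.15-fold, against 2.77-fold untreated. For GTT it went from 1.16 to 0.44, a change of -0.72 ± 0.08. For GAA it went from 1.16 to 0.18, a change of -0.98 ± 0.11, the largest of the 12. GGT changed least, from 0.29 to -0.04, by -0.33 ± 0.06. In treated DNA, G at position 11 was still favoured most before T, with an average of 0.45 ± 0.10 (SD over 3 sequences), less before A (0.17 ± 0.23) and C (0.14 ± 0.10). Before G it had become unfavourable in GGG, at -0.24 ± 0.03 (counting SE), while GGA and GGT, at -0.05 ± 0.04 and -0.04 ± 0.04, did not differ from their A and T partners beyond 2 counting SE. With C also counted as a partner base, the treated median was 0.22.

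The size of the change followed the middle base more than the last. Relative to sequences without CpG, the mean change was -0.90 ± 0.09 (SD over 3 sequences) with A at position 12, -0.72 ± 0.06 with T and -0.47 ± 0.09 with G. With C it was -0.79 ± 0.28, where GCA and GCT lay at -0.96 ± 0.06 and -0.94 ± 0.06 (counting SE) and GCG at -0.47 ± 0.05. By last base the means were -0.78 ± 0.22 (SD over 4 sequences) for A, -0.72 ± 0.25 for T and -0.66 ± 0.21 for G, which overlap widely. The SD of the change over the 12, 0.21, was 3.73 times their counting SE of 0.06. Sequences without CpG showed no such order by middle base, with means between -0.03 and 0.01.

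GCG is the one sequence of the set in which 2 CpGs follow each other. Its change on M.SssI was smaller than that of GCA by 0.49 ± 0.08 and than that of GCT by 0.47 ± 0.07. Untreated, GCG lay 1.56-fold below GCA, and after treatment it lay level with it, with a log difference of GCA less GCG of -0.05 ± 0.05. The sequences ACG and TCG hold only the CpG at position 12 and changed by 0.21 ± 0.06 and 0.10 ± 0.05 on the same scale. Matched to this pair, which share its inner CpG, GCG changed by -0.62 ± 0.06, nearer to the rest of the set.

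Outside GCG, fold differences between last bases were of similar size in treated DNA. The ratios of all 12 sequences spanned 6.24-fold in treated DNA, from GGG to GTT, against 8.01-fold untreated. GAA exceeded GAG 3.28-fold untreated and 3.12-fold treated, GGA exceeded GGG 3.43-fold and 3.36-fold, and GTT exceeded GTG 1.68-fold and 1.65-fold. Among the 16 highest of each block, 7 of the 12 stood both untreated and treated, but their competitors for these places changed. Sequences with a CpG at position 13 alone went from 3 to 0 places, those with a CpG at both position 10 and position 13 from 3 to 0, and those without CpG from 2 to 9.

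The 4 sequences that start with G and end with C allow the CpG at position 10 to be measured beside one at position 13. They are printed with both CpGs in capitals.
Variant GAC: gaccacccaCGaCGaa
Variant GCC: gaccacccaCGcCGaa
Variant GGC: gaccacccaCGgCGaa
Variant GTC: gaccacccaCGtCGaa
Each was compared with its A and T partners at position 11, which keep the CpG at position 13 and lose the one at position 10. The advantage of G in GTC went from 1.09 untreated to -0.07 treated, a change of -1.16 ± 0.09. GTT, GTA and GTG had averaged -0.69 ± 0.04, so the difference was -0.47 ± 0.10. In GAC the change was -1.22 ± 0.11, larger than in the A trio by -0.34 ± 0.12, and in GGC it was -0.84 ± 0.07, larger than in the G trio by -0.40 ± 0.08. In GCC it was -1.16 ± 0.11, which differed from GCA and GCT by -0.20 ± 0.12, within 2 counting SE. In 3 of 4 middle bases, then, loss on methylation at position 10 was 1.41-fold to 1.60-fold greater where position 13 also held a CpG. On the scale centred on sequences without CpG, the 11 with a CpG at position 13 alone ran from -3.09 to -1.87, below the whole range of the 12.

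Top-strand hemimethylation left most of the advantage of G in place. All 12 ratios were lower than untreated, by a median of 2.91-fold, but the sequences without CpG were lower by 2.49-fold too. The heading of the block does not name the methylated bases, and a shift common to all sequences cannot be told apart from the preparation of the block. Taken relative to sequences without CpG, the 12 changed by a median of -0.15, with a range from -0.42 ± 0.06 (GCG) to 0.40 ± 0.07 (GGT). A fall of more than 1.5-fold was found in 2 of the 12, GCG and GTG, against 7.81% of all 64 sequences. Both lay just past it, at 1.52-fold and 1.51-fold. A rise of that size was found in 0 of the 12, against 6.25% of all 64. Among the 30 without CpG the SD of the change was 0.24, similar to the 0.27 of the 12 and well above their counting SE of 0.07.

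By sequence, GAA had the highest ratio of the hemimethylated block, 4.57 (1140 bound and 249 unbound reads), followed among the 12 by GAT with 3.96 (1493 and 377). GTT had 3.67 (2228 and 606 reads) and GTA 3.42 (1621 and 473). Neighbours in this order differed by less than 2 counting SE. GGT had 2.81 (1314 and 468 reads), GGA 2.75 (1276 and 464) and GTG 1.93 (1461 and 756). The last 5 were lower than these: GCA had 1.22 (747 and 610 reads), GCT 1.19 (819 and 687), GAG 1.09 (819 and 750), GGG 0.729 (1159 and 1591) and GCG 0.678 (686 and 1012). Again 7 of the 12 stood among the 16 highest of the block.

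Against A or T at position 11, the median advantage of G was 0.76 in hemimethylated DNA, or 2.14-fold. It again split by middle base, in another way than on M.SssI treatment. With A in the middle it was lower than untreated by an average of -0.33 ± 0.02 (SD over 3 sequences) and with C by -0.31 ± 0.04. With T it changed by -0.05 ± 0.14, where GTG alone was lower, at -0.21, and GTT and GTA lay at 0.04 and 0.03. With G it was higher by 0.22 ± 0.17, from 0.04 in GGG to 0.37 in GGT. Middle bases moved sequences without CpG in this block as well, with mean changes of 0.30 for A, 0.03 for C, 0.05 for G and -0.20 for T. On the same centred scale the 12 themselves had mean changes of -0.01 for A, -0.31 for C, 0.28 for G and -0.29 for T. With A in the middle the advantage of G was thus lower although the 3 sequences stayed, on average, level with the median of sequences without CpG. The cause of these shifts was not tested.

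The M.SssI and hemimethylated blocks can be set against each other without the untreated block. In each of the 12 the advantage of G was smaller after M.SssI, by a median of -0.64, or 1.90-fold. The difference was smallest in GCG, at -0.27, and largest in GGA, at -0.76. For GTT the advantage was 0.44 against 1.20, and for GAA 0.18 against 0.81. The counting SE of these differences had a median of 0.08.

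What the duplex methylated block shows depends on the direction in which its bases were written down. Read as listed, its log ratios had r = -0.141 with those of the untreated block over 64 sequences of 1 pair of libraries, and with the 3 bases reversed r was 0.633, both as a description. The 4 sequences of the set that end in G read the same forwards and reversed, so their values are shared by these 2 readings. Read as the reverse complement or the complement, with r of 0.164 and 0.110, they would be other rows, with ratios of 0.472 for GAG, 0.743 for GCG, 0.736 for GTG and 0.232 for GGG. The values that follow hold for the listed and the reversed reading. GAG had 181 bound and 46 unbound reads, a ratio of 3.90 (2.83 to 5.56) against 3.15 untreated. GCG had 229 and 81 reads, a ratio of 2.82 (2.19 to 3.69) against 2.56. Both intervals overlap those of the untreated block. GTG had 95 and 43 reads, a ratio of 2.20 (1.53 to 3.25) against 7.29, and GGG had 70 and 72 reads, a ratio of 0.972 (0.69 to 1.37) against 1.53. These 2 intervals lie below the untreated ones. The ratios are not centred, and sequences without CpG were lower in this block too, by a median log ratio change of -1.36 as listed. Relative to that class, the changes were 1.57 as listed and 1.34 reversed for GAG, and 1.45 and 1.23 for GCG. They were 0.16 and -0.07 for GTG, and 0.90 and 0.68 for GGG. A shift common to all sequences cannot be told apart from the preparation of the block. GTG was the highest of the 4 untreated and the third here, below GAG and GCG, though neither GAG and GCG nor GCG and GTG differed by more than 2 counting SE. GGG was the lowest both times.

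Relative to sequences without CpG, the sign of the change of the other 8 differed between these 2 readings in all but GGA. GGA lay lower in both, at -1.71 as listed and -0.28 reversed. Uncentred, all but GCT had ratios below the untreated ones in both readings. GCT had 0.628 as listed and 4.53 reversed, against 3.76 untreated. As listed, GTT had 99 bound and 102 unbound reads, a ratio of 0.971, GAA had 41 and 127 reads, a ratio of 0.326, and GCA had 30 and 130 reads, a ratio of 0.234. As listed, log ratios of sequences without CpG had a median change of -1.36, and relative to that the 12 changed by a median of -0.97. A fall of more than 1.5-fold was found in 8 of the 12, against 32.8% of all 64, and a rise of that size in 3, GAG, GCG and GGG, against 34.4%. The advantage of G at position 11 was below 0 in all 12 as listed, with a median of -0.44.

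In reverse order the same names pick other rows. GTT is then the row listed as TTG, with 300 bound and 51 unbound reads and a ratio of 5.83, and GAA the row listed as AAG, with 258 and 70 reads and a ratio of 3.67. GAT, listed as TAG, had the highest ratio of the block, 6.14 (279 and 45 reads). Of the 12, 11 then stood among the 16 highest, and the advantage of G was above 0 in all 12, with a median of 1.74. The advantage was smallest in GGA, at 0.51, and the 3 sequences with G in the middle averaged less than those with any other middle base. Relative to sequences without CpG, 0 of the 12 fell by more than 1.5-fold in this reading, against 32.8% of all 64, and 7 rose, against 25%. No label states which reading is meant, and centring mattered as well, so no direction is given for these 8 sequences on duplex methylation. For the 4 that end in G, values are given only under these 2 readings, and their direction depended on centring. GGG was lower uncentred and higher centred. GTG was lower uncentred, but its centred change, 0.16 as listed and -0.07 reversed, had no clear direction. GAG and GCG were higher centred, while their uncentred intervals overlapped the untreated ones.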

How the data were processed

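The data are gel-separated bound and unbound libraries of synthetic DNA bound by mouse Gli protein, 1 library per fraction. Per the file headers, the authors deposited whole-number read counts per sequence and the ratio of the bound to the unbound count. A further deposited column without a heading holds minus the natural log of that ratio. The R6 table lists 4 blocks of 64 sequences. The counting software is not given in the sources used here, nor are its filters. From the 16-base table only the sequences were read.

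Log ratios were natural logs of (bound + 0.5)/(unbound + 0.5), with at least 10 reads in each fraction, and SEs the square root of the summed reciprocal counts. Changes were centred on the median of the 30 sequences without CpG, counting the fixed C and G beside the window. The advantage of G was a log ratio less the mean of those with A or T at position 11. A call was a centred change of more than 1.5-fold. All 12 sequences are named, with their position 11 partners and the 4 sequences starting with G and ending with C. The calculation was tested on simulated data. Alternatives covered the pseudocount, count minimum, centring, size of a call, comparison bases, the member with a second CpG and the listing of the duplex block. Sequences, lists and measures were chosen with earlier results of these data known. Python 3.11.15, numpy 2.4.6, pandas 2.3.3 and scipy 1.17.1 were used.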

Additional observations from a re-analysis of the deposited data

How the results depend on the processing

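Of 105 alternative values over 14 results, 86 moved by less than 1.96 median counting SE, or less than 1.5 times for a count. On M.SssI treatment the median change was -0.61 without centring and -0.23 scaled by block totals, where 3 of 12 sequences fell past 1.5-fold. With a limit of 2-fold 7 did. The advantage of G in treated DNA was 0.22 with C among the partners. For hemimethylation the median was -1.07 without centring. The count of 2 became 1 without GCG, 12 without centring and 0 at 2-fold. For the duplex block the median was -1.36 and 1 sequence fell with at least 100 reads in each fraction, which leaves 1 of the 12. It was -2.33 without centring, -1.45 centred on the mean, -1.57 read as the complement and 0.68 in reverse order, where 0 fell. The advantage of G there was 1.74 in reverse order and 0.16 as the reverse complement. In the R4-R6 reaction the median log ratio of the 12 was 1.15 in the R6 block and 1.21 in the 7-base sequences, an alternative chosen after seeing the data. Beyond the totals, the smaller sets and the stricter limit that these alternatives carry by construction, the cause was not tested. No paired analysis was possible because each fraction is 1 library. Depth limits the duplex block most, and no result has a replicate.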
